A study of Homo sapiens with 8 samples.

Results

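The cytosolic ribosomal protein genes were examined in RNA-seq data from NB4 cells, a cell line derived from acute promyelocytic leukemia (APL) that carries the PML/RARα fusion. The genes were those whose symbol has the form RPL or RPS followed by a number and an optional A or X, together with RPLP0, RPLP1, RPLP2 and RPSA, listed for all 8 libraries with at least 100 counts in sum. Of 77 names of this form, 76 met the minimum, out of 37526 names listed for all libraries. They comprised 46 genes of the large (60S) and 30 of the small (40S) subunit. RPS18 was left out with 19 counts in sum, whereas the lowest genes kept were RPS10 with 582 and RPL17 with 915 counts.

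All cells were NB4 cells with a stably transduced lentiviral vector, either the control (shNC, an empty vector per the labels and a scramble shRNA per the methods) or an shRNA against the H3K9 demethylase KDM3B (shKDM3B). Each was sequenced without and with all-trans retinoic acid (ATRA), which drives APL cells towards granulocytes, at 1 µM. The labels name 24 and 48 hours of treatment without saying which applied to these libraries. The 4 groups shNC, shKDM3B, shNC+ATRA and shKDM3B+ATRA had 2 libraries each. The methods call these replicates of the RNA-seq without saying whether they came from separate cultures, so the p-values measure the spread between libraries, which may be technical.

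The libraries held between 9708739 and 33017787 counts on genes. KDM3B was at 189 and 189 CPM (counts scaled to library size) in shNC, 76.4 and 85.0 in shKDM3B, 190 and 113 in shNC+ATRA and 51.3 and 55.3 in shKDM3B+ATRA. The granulocytic markers ITGAM, CYBB, TGM2 and S100A9 were higher in each treated library than in the untreated ones, and the promyelocyte markers MPO and CD33 were present, but ELANE, PRTN3 and AZU1, which define promyelocytes, were at 1.44 CPM or lower in all libraries. HBB, MS4A1 and KRT19 were at 0. Reads outside annotated genes made up 8.49% to 9.62% in the untreated libraries and 9.36% in replicate 1 of shNC+ATRA, but 50.0% to 51.4% in replicate 2 of shNC+ATRA and in both shKDM3B+ATRA libraries. For this reason the differences of the 76 genes between the treated groups are given below against each shNC+ATRA library as well.

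Ribosomal proteins assemble with ribosomal RNA into the subunits of the ribosome, the small one decoding the mRNA and the large one forming peptide bonds. Their mRNAs are among the most abundant of a growing cell. Most begin with a 5′ terminal oligopyrimidine (TOP) tract, a C followed by pyrimidines, through which the kinase mTOR and the RNA-binding protein LARP1 control their translation and stability. Loss of a copy of several of these genes causes Diamond-Blackfan anaemia, and RPS14 is the gene implicated in the anaemia of the 5q- syndrome.

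The TOP tract was read at the transcript starts that RefSeq lists on GRCh38.p14. A start was available for 61 of the 76 genes, and 45 of these (73.8%) had at least 1 start with C followed by 4 or more C or T bases. Over all 27305 genes of the same table the share was 5.14%, and over 69 mitochondrial ribosomal protein genes 8.70%. The sequences below show 15 bases before and 15 from the start, 5′ to 3′ on the coding strand, with the tract in capitals. They were chosen to set genes with large fitted differences in the comparisons below (RPL35, RPL37A) beside genes near 0 (RPL14, RPS3A), RPS14, the stalk gene RPLP0, and TOP mRNAs for other proteins (EEF1A1, NPM1, TPT1).
RPL35 (chr9:124861943-124861972, minus strand): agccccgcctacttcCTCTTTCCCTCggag
RPL37A (chr2:216498829-216498858, plus strand): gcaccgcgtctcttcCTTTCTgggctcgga
RPL14 (chr3:40457324-40457353, plus strand): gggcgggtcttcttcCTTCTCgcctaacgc
RPS3A (chr4:151099613-151099642, plus strand): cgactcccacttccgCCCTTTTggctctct
RPS14 (chr5:150449725-150449754, minus strand): ccgccccctcccactCTCTCTTTCCggtgt
RPLP0 (chr12:120201097-120201126, minus strand): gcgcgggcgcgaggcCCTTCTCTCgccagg
EEF1A1 (chr6:73521018-73521047, minus strand): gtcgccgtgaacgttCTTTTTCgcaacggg
NPM1 (chr5:171387834-171387863, plus strand): cggggagcctgcgtcCTTTCCCTggtgtga
TPT1 (chr13:45341169-45341198, minus strand): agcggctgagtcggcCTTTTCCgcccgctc
The tract was present in all the genes shown, at either end of the range, so these examples cannot relate it to the fitted differences. It ran over 11 bases in RPL35 and 6 bases in both RPL37A and RPL14.

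The share of counts on the 76 genes was first compared between groups. It was 6.74% and 6.13% in shNC, 6.42% and 5.90% in shKDM3B, 6.17% and 6.09% in shNC+ATRA, and 4.37% and 4.64% in shKDM3B+ATRA. The shares of the first 3 groups overlapped, and both shKDM3B+ATRA libraries lay below all others. The group means were 6.44% ± 0.430 (SD, n = 2), 6.16% ± 0.366, 6.13% ± 0.0568 and 4.50% ± 0.191 in the same order. The difference of -1.63 percentage points between shKDM3B+ATRA and shNC+ATRA gave an exact two-sided permutation p of 0.333, which is the smallest that 2 libraries against 2 allow. Replicate 2 of shNC+ATRA, which shared the high portion of reads outside genes with both shKDM3B+ATRA libraries, had a share of 6.09%.

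**Figure D1:**
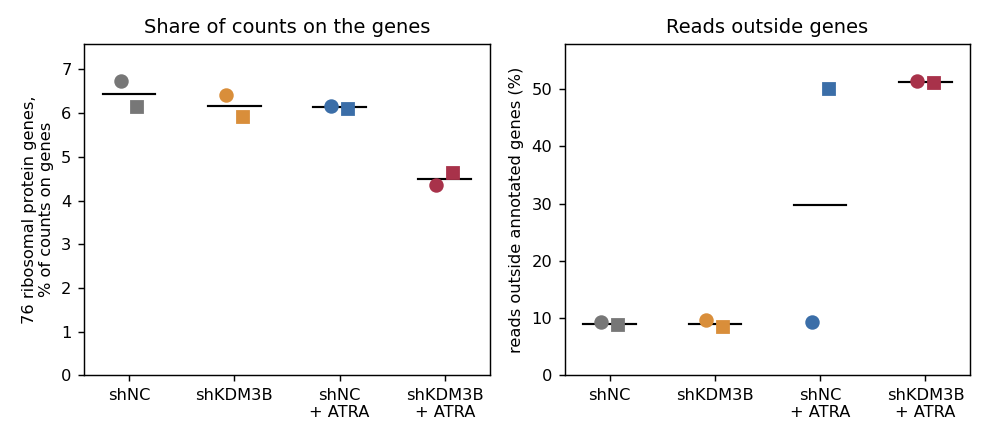
The left panel shows the share of gene counts on the 76 ribosomal protein genes (%) and the right panel the reads outside annotated genes (%), by group, with circles for replicate 1, squares for replicate 2 and a line for the group mean. Both shKDM3B+ATRA libraries are at 4.37% and 4.64%, below all others. Replicate 2 of shNC+ATRA is at 50.0% of reads outside genes and at a share of 6.09%.

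Both 60S and 40S genes had their lowest shares in the shKDM3B+ATRA libraries. Counts on 40S genes per 100 counts on 60S genes were 54.7 and 54.6 in shNC, 54.0 and 53.0 in shKDM3B, 54.4 and 53.0 in shNC+ATRA, and 50.7 and 52.6 in shKDM3B+ATRA.

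Levels differed widely among the genes. In CPM on a common TMM scale of the 8 libraries, RPL4 (mean 2740 over the 8 libraries) and RPLP0 (2614) were the highest, and 23 genes had a mean over 1000. Per kilobase of coding sequence, the highest genes in shNC were RPL41, which encodes the shortest ribosomal protein, at 7548 CPM per kb, RPL37 at 4228 and RPS24 at 4202. Among the lowest were RPS10 at 9.70 and RPL17 at 12.7. In all, 7 genes had a mean under 100 CPM, among them RPS10, RPL17, RPS9, RPL26, RPL36A and RPS15A. Of these, RPS10 shared 31.5% of its exon bases in GENCODE v44 with the readthrough gene RPS10-NUDT3 and RPL17 24.9% with RPL17-C18orf32, both on the same strand, whereas RPS9 shared 0%. How the counting treated reads on such shared exons and on pseudogene copies was not tested, and the levels of these 7 genes are uncertain.

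The first comparison asked how silencing of KDM3B changed the ribosomal protein mRNAs without ATRA. None of the 76 genes passed the criterion of an unadjusted P-value under 0.05 and a fold change of at least 1.5, that is 0 higher and 0 lower, where 3.48% of all 13855 genes tested were higher and 3.53% lower in edgeR's quasi-likelihood test. At an unadjusted P-value under 0.05 without a fold criterion 0 were higher and 0 lower, beside 5.66% and 4.53% of all genes, and DESeq2 gave 0. The median log2 fold change was -0.07, beside 0.00 over all genes, and 60 of 76 values were under 0, beside 50.0% of all genes. The CPM of the groups did not overlap for 20 genes that were lower and 3 that were higher in shKDM3B, beside 19.1% and 20% of all genes.

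Among the genes with the lowest values was RPS26. RPS26, a component of the mRNA exit channel, was at 232 and 229 CPM in shNC and 174 and 214 in shKDM3B, a log2 fold change of -0.25 ± 0.16 (SE, n = 2 per group, adjusted p = 0.682). Other low values were those of RPL36A (-0.22), RPS15 (-0.21), RPLP2 (-0.20) and RPS10 (-0.19), and among the highest were RPL41 (0.11), RPL3 (0.11), RPL4 (0.09) and RPL17 (0.09).

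Among the related lists without ATRA, MYC, a transcription factor for ribosome biogenesis, rose by 0.65 ± 0.18 on the log2 scale (adjusted p = 0.236 in edgeR), from 452 and 614 CPM in shNC to 766 and 912 in shKDM3B, and GABPA had the lowest value of the regulators with -0.34. Of the other TOP mRNAs, EEF1D rose by 1.33 ± 0.44 (adjusted p = 0.329 in edgeR), and NAP1L1 had the lowest value with -0.28. EEF1D was at 17.7 and 5.62 CPM in shNC, far apart, and 30.7 and 27.6 in shKDM3B. The chaperones ran from -0.35 in TSR2 to 0.26 in HEATR3, the paralogues from -0.19 in RPL36AL to 0.19 in RPL7L1, and FAU and RACK1 had -0.18 and 0.02. Of 77 mitochondrial ribosomal protein genes, MRPL45 rose by 1.61 and 0 fell by the criterion, beside 3.48% and 3.53% of all genes, with MRPS10 lowest at -0.43. MRPL45 was near the floor, at 0.703 and 0.336 CPM in shNC and 2.41 and 0.828 in shKDM3B (adjusted p = 0.438 in edgeR). Of 77 pseudogenes tested, 0 were called, between -0.59 in RPS4XP11 and 1.02 in RPS7P11.

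The second comparison asked how silencing of KDM3B changed these mRNAs in ATRA-treated cells. Here 26 of 76 genes (34.2%) fell and 0 rose, beside 4.37% of all 14281 genes lower and 2.42% higher. The 26 genes comprised 14 of 46 large subunit and 12 of 30 small subunit genes. With the replicate number as a block in the fit, 17 of the 76 genes fell. At an unadjusted P-value under 0.05 alone, 44 of 76 were lower and 0 higher, beside 5.76% and 3.93% of all genes. No gene had an adjusted p under 0.05 in edgeR, neither among the 76 nor among all genes, whereas DESeq2 gave 39 of the 76 lower at that limit, beside 2.02% of all genes. The median log2 fold change was -0.52, equal to 30.2% lower, beside 0.03 over all genes, and 74 of 76 values were under 0, beside 46.9% of all genes. Cell type markers differed between the same groups. MPO was at 705 and 575 CPM in shNC+ATRA and 3059 and 2142 in shKDM3B+ATRA, and S100A9 at 463 and 502 against 34.0 and 45.6 CPM, and their part in the values of the ribosomal protein genes was not tested. For 61 genes the CPM of both shKDM3B+ATRA libraries lay below both shNC+ATRA libraries, beside 25.4% of all genes, and for 0 genes above both, beside 23.3%.

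**Figure D2:**
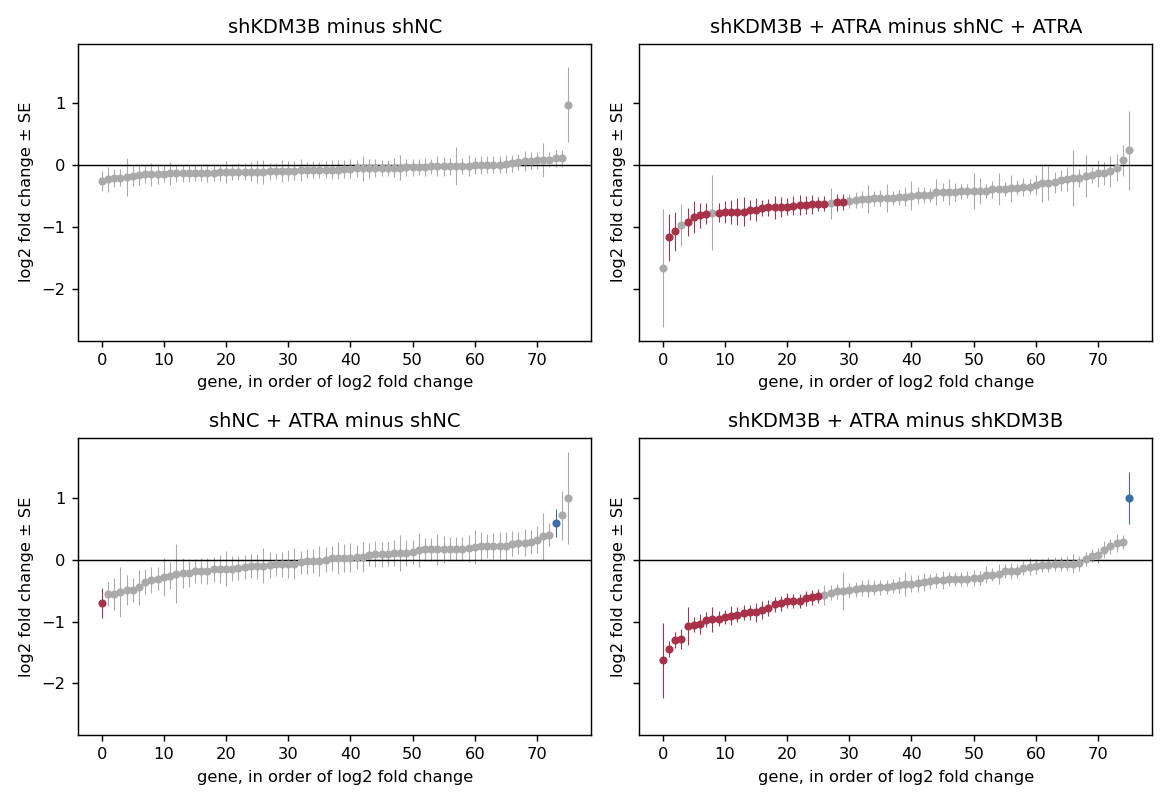
Each panel plots the log2 fold change ± SE of the 76 ribosomal protein genes in order of size for a pair of groups, with genes called lower in red, called higher in blue and the others in grey. In the upper right panel nearly all values lie under 0 (74 of 76), with a median of -0.52, while the values without ATRA in the upper left panel centre on -0.07.

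Among the largest fitted differences were those of RPL35, RPL37A and RPL37. RPL35, a 60S protein near the exit of the peptide tunnel, was at 828 and 429 CPM in shNC+ATRA and 258 and 302 in shKDM3B+ATRA. It fell by 1.16 ± 0.38 on the log2 scale (adjusted p = 0.508 in edgeR). The groups did not overlap, but the shNC+ATRA libraries were further from each other than replicate 2 was from the shKDM3B+ATRA libraries. RPL37A, a zinc-binding 60S protein, was at 752 and 441 CPM in shNC+ATRA and 265 and 304 in shKDM3B+ATRA, and fell by 1.06 ± 0.32. RPL37 had a log2 fold change of -0.96 ± 0.34 (adjusted p = 0.514) and was not called.

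At the other end were RPS9 (0.24 ± 0.63), RPL36A (0.08 ± 0.25), RPL14 (-0.04 ± 0.21), RPS3A (-0.10 ± 0.25) and RPL15 (-0.12 ± 0.19). RPL14 was at 414 and 588 CPM in shNC+ATRA and 471 and 501 in shKDM3B+ATRA. RPS3A was at 912 and 1403 against 1116 and 1040 CPM. In both genes the shKDM3B+ATRA libraries lay between the shNC+ATRA libraries.

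The order of the genes depended on the control library. Against replicate 2 of shNC+ATRA alone, with a similar portion of reads outside genes, the middle part of the values was narrow, with a lower quartile of -0.60, a median of -0.51 and an upper quartile of -0.42, and 74 of 76 were under 0. In that fit 22 genes were called lower, beside 8.19% of all genes, 72 had an unadjusted P-value under 0.05, beside 16.3%, and 70 an adjusted p under 0.05 in edgeR, beside 11.0%. Against replicate 1 alone, the quartiles were -0.78 and -0.15 around a median of -0.48, and 68 of 76 were under 0. In that fit 33 genes were called lower, beside 13.3% of all genes, and 1 higher, 54 were lower at an unadjusted P-value under 0.05, beside 22.9%, and 53 at an adjusted p under 0.05 in edgeR, beside 20.1%. A single control library is assumed to vary like the shKDM3B+ATRA pair in these fits. The log2 fold change of RPL35 was -0.60 against replicate 2 and -1.56 against replicate 1, that of RPL37A -0.62 and -1.40, that of RPL14 -0.26 and 0.23, and that of RPL34 -0.68 and 0.51. RPS14 differed little, with -0.54 and -0.60. Among the 76 genes, 12 were apart by 1.5-fold or more between the shNC+ATRA libraries, compared with 2 in shNC, 2 in shKDM3B and 3 in shKDM3B+ATRA.

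The calls also changed when a shKDM3B+ATRA library was left out, and the reason was not tested. Without replicate 1 of shKDM3B+ATRA, 0 genes were called lower, beside 0.624% of all genes, with a median of -0.46. Without replicate 2 of that group 1 gene was called lower, beside 1.45% of all genes, with a median of -0.57. No gene among all those tested had an adjusted p under 0.05 and a lower value in edgeR in either fit. In both cases the spread came from the shNC+ATRA pair alone.

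The acidic stalk, which recruits elongation factors to the ribosome, consists of RPLP0, RPLP1 and RPLP2. None of the 3 genes was called in any comparison. RPLP0 was at 2535 and 2406 CPM in shNC, 2515 and 2370 in shKDM3B, 2903 and 3457 in shNC+ATRA, and 2372 and 2358 in shKDM3B+ATRA, with a log2 fold change of -0.42 ± 0.14 between the treated groups (adjusted p = 0.514 in edgeR). Its level in shKDM3B+ATRA was close to that of the untreated groups, and the shNC+ATRA libraries lay above all others. RPLP1 and RPLP2 had -0.41 ± 0.29 and -0.54 ± 0.23. RPLP1 was at 1056 and 1754 CPM in shNC+ATRA and 1002 and 1102 in shKDM3B+ATRA, so that these groups overlapped.

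RPS14, the gene of the 5q- syndrome, was at 1014 and 903 CPM in shNC, 906 and 865 in shKDM3B, 1037 and 1006 in shNC+ATRA, and 669 and 699 in shKDM3B+ATRA. Its log2 fold change between the treated groups was -0.57 ± 0.11 (unadjusted P = 0.00928 and adjusted p = 0.502 in edgeR), just short of the 1.5-fold criterion, and both shKDM3B+ATRA libraries lay below all others. Of the ribosomal proteins that bind MDM2, the ubiquitin ligase of p53, RPL11 fell by 0.65 ± 0.16, while RPS7 (-0.55 ± 0.13), RPL23 (-0.51 ± 0.12) and RPL5 (-0.24 ± 0.17) were not called. RPL11 was at 957 and 807 CPM in shNC+ATRA and 531 and 589 in shKDM3B+ATRA, without overlap.

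Among 20 Diamond-Blackfan anaemia genes, 8 fell between the treated groups and 0 rose, beside 26 of all 76 ribosomal protein genes (34.2%) and 4.37% of all genes lower. Their median log2 fold change was -0.57, beside -0.52 over the 76 genes, and nothing particular to this list was tested. RPL35 was among the lowest values of this list, and RPS10 (-0.17 ± 0.34) and RPL15 (-0.12 ± 0.19) were the highest. RPS19, the gene most often mutated in the disease, fell by 0.62 ± 0.12.

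**Figure D3:**
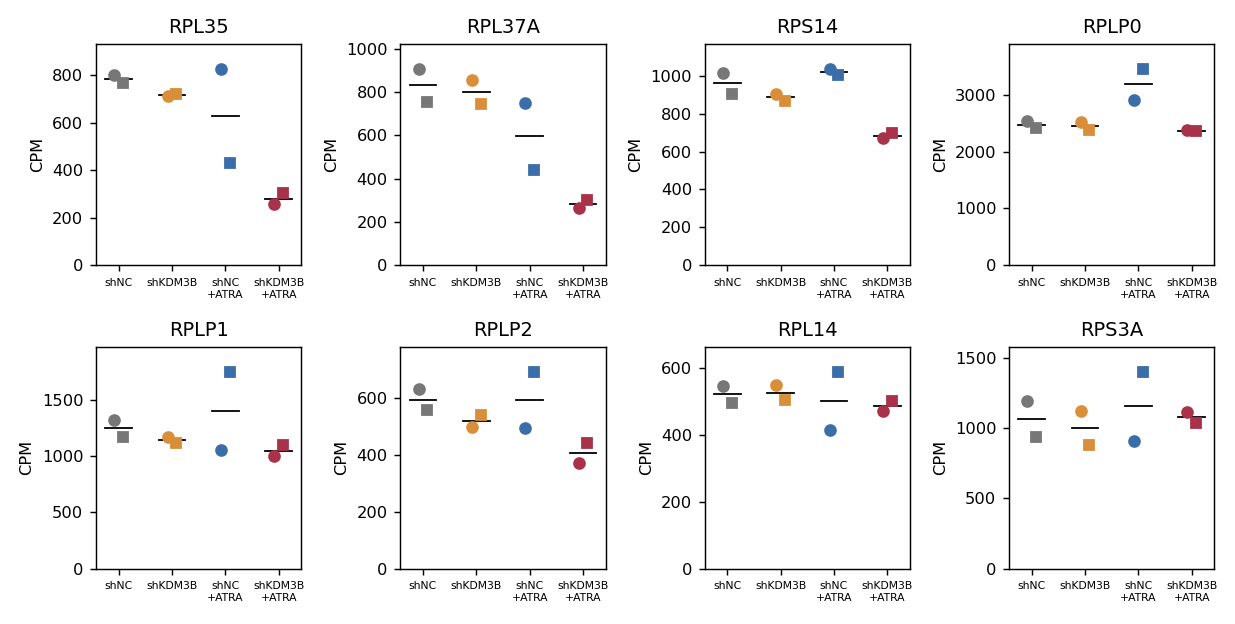
CPM on the common TMM scale of 8 ribosomal protein genes, by group, with circles for replicate 1, squares for replicate 2 and a line for the group mean. RPS14 at 669 and 699 CPM in shKDM3B+ATRA lies below all other libraries, whereas for RPL14 and RPS3A the shKDM3B+ATRA libraries lie between the shNC+ATRA libraries.

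Genes related to the ribosome were compared in the same fit. FAU encodes a fusion of a ubiquitin-like protein with the ribosomal protein eS30. FAU, at 213 and 121 CPM in shNC+ATRA and 70.9 and 82.1 in shKDM3B+ATRA, had a fold change of -1.12 ± 0.33 on the log2 scale, which passed the criterion (adjusted p = 0.502). RACK1, a scaffold on the small subunit, had -0.12. Among 6 ribosomal protein paralogues tested, 0 were called, and the values ran from -0.64 in RPL39L to 0.25 in RPL7L1.

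Of 13 TOP mRNAs for other proteins, 0 were called between the treated groups, 0 had an unadjusted P-value under 0.05 in edgeR, and the median log2 fold change was -0.08. EEF1A1, the elongation factor that delivers aminoacyl-tRNA, was at 9092 and 13310 CPM in shNC+ATRA and 11317 and 11590 in shKDM3B+ATRA, a log2 fold change of 0.04. The lowest value was that of TPT1 (-0.41, unadjusted P = 0.0569 in edgeR), and the highest that of EEF1D (0.16), whose libraries varied between 4.05 and 25.7 CPM in these groups. The median and calls of this list rest on both shNC+ATRA libraries, and fits against each alone are not given. EEF1A1 in shKDM3B+ATRA lay above replicate 1 and below replicate 2 of shNC+ATRA. EEF2 was at 2076 and 1237 CPM in shNC+ATRA and 1309 and 1300 in shKDM3B+ATRA, below replicate 1 and above replicate 2. TPT1, at 2356 and 2832 against 1927 and 1976 CPM, lay below both. A difference between the listed genes and the ribosomal protein genes was not tested.

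Among 14 regulators of ribosomal protein mRNAs, EIF4EBP1, the translational repressor that mTOR phosphorylates, fell by 0.60 ± 0.17 (adjusted p = 0.502), and the highest value was that of GABPA (0.44). LARP1 had -0.13 and MTOR -0.01. Among 6 chaperones, TSR2, which escorts RPS26, fell by 0.61, and HEATR3 had the highest value with 0.20. Of 74 mitochondrial ribosomal protein genes tested, 7 fell and 0 rose, beside 4.37% and 2.42% of all genes, with a median of -0.20, and the values ran from -1.59 in MRPL12 to 0.52 in MRPS36. Of 53 ribosomal protein pseudogenes tested, 10 fell and 0 rose, beside the same shares, with a median of -0.49, between -2.14 in RPL24P8 and 0.50 in RPL23AP82. Counts of pseudogenes and of their parent genes cannot be told apart fully by aligned reads.

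The third comparison asked how ATRA changed the genes in control cells. RPL27A rose and RPS15A fell, 1 of 76 genes each, beside 15% of all 12429 genes higher and 10.8% lower. RPL27A was at 934 and 855 CPM in shNC and 1093 and 1538 in shNC+ATRA, a log2 fold change of 0.59 ± 0.23 (adjusted p = 0.151 in edgeR). RPL27A was no longer called with DESeq2 size factors (0.58), library size alone (0.50), upper-quartile scaling (0.53), TMM without the members (0.57), no low-count filter (0.54), DESeq2 (0.58), all 8 libraries in 1 fit (0.56) or the replicate block (0.57), nor without either shNC library or without replicate 2 of shNC+ATRA, where its value was 0.30. RPS15A was at 58.6 and 72.8 CPM in shNC and 44.01 and 34.9 in shNC+ATRA, and fell by 0.70 ± 0.24 (adjusted p = 0.104 in edgeR). RPS15A was not called without replicate 2 of shNC (-0.55) or replicate 2 of shNC+ATRA (-0.57). At an unadjusted P-value under 0.05 alone, 1 gene was higher and 3 were lower, beside 15.9% and 11.7% of all genes, and 0 had an adjusted p under 0.05 in edgeR or DESeq2. The median over the 76 genes was 0.02, beside 0.02 over all genes, and 36 of 76 values were under 0, beside 48.7% of all genes. The CPM did not overlap for 8 genes that were higher and 17 that were lower, beside 26.6% and 28.5% of all genes.

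Among the genes not called in control cells, high values were those of RPS9 (0.72), RPLP0 (0.40) and RPL34 (0.38), and the lowest those of RPS29 (-0.56), RPL36A (-0.55), RPS10 (-0.52) and RPL26 (-0.50). RPS14 had 0.13 ± 0.19. Without replicate 1 of shNC+ATRA, 4 genes were called higher and 6 lower, beside 21.4% and 17.0% of all genes in that fit. Without replicate 2, whose reads outside genes differed from those of the shNC libraries, the counts were 0 and 1, beside 12.9% and 11.7% of all genes, with a median of -0.02.

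Among the related lists in control cells, MYC fell with ATRA by 0.85 ± 0.24 (adjusted p = 0.0600 in edgeR) and GABPA had the highest value of the regulators with 0.70. GABPA was not called and its groups overlapped, at 60.6 and 45.6 CPM in shNC and 48.1 and 121 in replicates 1 and 2 of shNC+ATRA. Of the chaperones, GRWD1 fell by 0.70, and TSR2 was highest with 0.03. The other TOP mRNAs ran from -0.45 in NPM1 to 0.32 in TPT1 with 0 called, the paralogues from -0.57 in RPL7L1 to 0.60 in RPS27L, and FAU and RACK1 had -0.23 and -0.25. Of 76 mitochondrial ribosomal protein genes, 2 rose and 3 fell, beside 15% and 10.8% of all genes, led by MRPS6 (2.55 ± 0.34, adjusted p = 0.00366) and MRPL12 (-1.14). Of 72 pseudogenes, 0 rose and 4 fell, beside the same shares, between -2.51 in RPL37P6 and 0.96 in RPL12P12.

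The fourth comparison asked the same in shKDM3B cells. Here 26 of 76 genes fell and 1 rose, beside 18.3% of all 12756 genes lower and 24.0% higher. At an adjusted p under 0.05, 44 genes were lower and 0 higher in edgeR, beside 22.5% and 27.5% of all genes. At an unadjusted P-value under 0.05 alone, 49 were lower and 2 higher, beside 25.9% and 30.7%. The median log2 fold change was -0.42, beside 0.04 over all genes, and 68 of 76 values were under 0, beside 47.5% of all genes. For 64 genes both treated libraries lay below both untreated ones, beside 38.1% of all genes, and for 3 genes above both, beside 37.8%. Both treated libraries had about 51% of reads outside genes and both untreated ones under 10%, so that in this comparison ATRA and the read composition cannot be told apart.

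RPL37A fell from 856 and 745 CPM in shKDM3B to 265 and 304 in shKDM3B+ATRA, by 1.44 ± 0.13 on the log2 scale (adjusted p = 2.1e-05 in edgeR). RPL35 fell from 711 and 722 to 258 and 302 CPM, by 1.30 ± 0.13 (adjusted p = 3.0e-05 in edgeR). RPS15A fell by 1.29 ± 0.16 and RPL17 by 1.07 ± 0.31. Of the genes that bind MDM2, RPS7 fell by 0.67 ± 0.12, and RPL11 (-0.53), RPL23 (-0.48) and RPL5 (-0.35) had adjusted p-values between 0.00438 and 0.0329 but less than a 1.5-fold change. The same held for RPS14 (-0.32 ± 0.11, adjusted p = 0.0398 in edgeR).

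The gene that rose was RPS9 (0.99 ± 0.41), at 9.30 and 5.71 CPM in shKDM3B and 7.79 and 20.7 in shKDM3B+ATRA. These groups overlapped, and without replicate 2 of shKDM3B+ATRA the value was 0.12. The next highest values were those of RPL27A (0.29), RPS26 (0.27), RPL34 (0.21) and RPS3A (0.16). Of the 20 Diamond-Blackfan anaemia genes, 8 fell and 0 rose, beside 34.2% of the 76 genes and 18.3% of all genes lower. FAU fell by 1.16 ± 0.15, EEF2 by 0.83 ± 0.11 and MYC by 1.17 ± 0.13. GABPA rose by 1.49, and the lowest value of the other TOP mRNAs was that of EEF1D (-0.87, not called). RPL39L, a paralogue, fell by 1.10, and RPL36AL was the highest paralogue with 0.58. The chaperone AAMP fell by 0.71, and PDCD2 was highest with -0.13. Of 76 mitochondrial ribosomal protein genes, 5 rose and 14 fell, beside 24.0% and 18.3% of all genes, between MRPL45 (-2.83) and MRPS6 (1.70). MRPL45 was near the floor, at 2.41 and 0.828 CPM in shKDM3B and 0.105 and 0.301 in shKDM3B+ATRA. Of 67 pseudogenes, 4 rose and 36 fell, beside the same shares. The lowest value was that of RPS2P7 (-5.61), at 6.99 and 4.20 CPM in shKDM3B and 0.105 and 0.100 in shKDM3B+ATRA, but also at 7.05 and 0.553 in replicates 1 and 2 of shNC+ATRA. The highest was that of RPL7P50, at 0 in both shKDM3B libraries, 2.21 and 1.91 CPM in shKDM3B+ATRA, and 0 and 4.33 in replicates 1 and 2 of shNC+ATRA. The part of the reads outside genes in these values was not tested.

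A difference in the ATRA response between shKDM3B and control cells was tested as an interaction over the 8 libraries. The ATRA response was lower in shKDM3B cells for 18 of 76 genes and higher for 0, beside 2.72% and 1.27% of all 13528 genes. The lower count was 3 without replicate 1 of shKDM3B+ATRA, beside 1.12% of all genes, and 22 without its replicate 2, beside 2.55%. It was 9 without replicate 1 of shNC+ATRA, beside 2.89%, and 24 without its replicate 2, beside 9.03%. With library size alone it was 10, beside 2.06%. Both shKDM3B+ATRA libraries, but only replicate 2 of shNC+ATRA, had the high portion of reads outside genes, and its part in the interaction was not tested. At an unadjusted P-value under 0.05 alone, 33 genes were lower and 0 higher, beside 3.07% and 1.42% of all genes, and 0 had an adjusted p under 0.05 in edgeR or DESeq2. The median interaction was -0.43, beside -0.02 over all genes, and 72 of 76 values were under 0, beside 52.4% of all genes. The CPM of 6 genes was higher with ATRA in control cells and lower in shKDM3B cells, without overlap in either, beside 0.968% of all genes, and the reverse held for 0 genes, beside 0.569%. Among the lowest values were those of RPL35 (-1.04 ± 0.39), RPL37A (-1.01 ± 0.35), RPL37 (-0.92 ± 0.35) and RPL17 (-0.86 ± 0.66), and the highest those of RPL36A (0.30 ± 0.30), RPS9 (0.25 ± 0.73), RPS26 (0.03), RPS10 (0.01) and RPS3A (-0.01). RPS14 had -0.46 ± 0.17.

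Features that the choice of genes did not use were set beside the fold changes between the treated groups. The Spearman correlation across the 76 genes was 0.25 with coding length, 0.30 with the number of named pseudogenes and 0.32 with the share of exon bases overlapped on the opposite strand. These are descriptions over genes from the same libraries, which are not independent replicates. The median log2 fold change was -0.49 for 25 genes with under 400 bp of coding sequence, -0.57 for 29 genes of 400 to 600 bp and -0.38 for 22 genes over 600 bp. It was -0.58 for 50 genes with no exon overlapped on the opposite strand, 22 of them called lower, and -0.41 for the 26 others, 4 of them called lower. The TOP tract was found in 16 of 19 called genes and 29 of 42 other genes with a listed start, and the difference was not tested.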

How the data were processed

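Total RNA of NB4 cells was sequenced in 150 bp read pairs. According to the methods and submitters' notes, the authors aligned reads to hg38 with HISAT2 and counted them on genes with HTSeq; the deposited files hold raw counts per gene. The setting for strand is not given in the sources used here. Names differ between untreated (56470) and ATRA-treated libraries (56609), and comparisons across treatment used the 37526 shared names. HTSeq's summary lines were kept out of library sizes.

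Pairs of groups were compared with edgeR 4.0.16 in R 4.3.3 (filterByExpr, TMM, quasi-likelihood test), and the interaction over all 8 libraries. A gene was called at an unadjusted P-value under 0.05 and a fold change of at least 1.5, as in the methods. Benjamini-Hochberg adjustment covered all genes of a fit. The SE is the log2 fold change divided by the square root of F. DESeq2 1.42.0 was an alternative, with other scalings, filters, a replicate block and left-out libraries. The fits were tested on simulated counts with 100 genes changed 1.5-fold and 100 changed 3-fold. Of these, 9% and 60% were called between the treated groups, and 40% and 98% without ATRA. The shares were 33% and 88% for ATRA in control cells, 42% and 90% in shKDM3B cells, and 18% and 79% for the interaction. A gene not called may therefore have changed. Python 3.11.15 with pandas 2.3.3 summarised them.

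The genes and lists were chosen with earlier results of these data known. Named were the 5 largest rises and falls per comparison, all stalk, 5q- and MDM2-binding genes, the 2 highest and 2 lowest Diamond-Blackfan genes, the 3 highest and lowest levels per kb, and the extremes of each related list; others, such as RPS19, RACK1, LARP1, MTOR and EEF1A1, were chosen after their values were seen. Some genes that this rule names are not reported here. SEs cover the spread between libraries only.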

Additional observations from a re-analysis of the deposited data

Results flagged for a closer look

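For 6 of 76 ribosomal protein genes, both treated libraries lay above both untreated libraries in control cells and below both in shKDM3B cells, beside 0.968% of all 13528 genes. The interaction values were -0.58 for RPL13A (unadjusted P = 0.00695 in edgeR), -0.25 for RPL4 (0.140), -0.60 for RPL41 (0.0114), -0.39 for RPL7A (0.0637), -0.43 for RPS15 (0.0830) and -0.63 for RPS27 (0.00826), with an adjusted p of 1.00 for each. RPL13A was at 1542 and 1644 CPM in shNC, 1848 and 1898 in shNC+ATRA, 1555 and 1538 in shKDM3B, and 1157 and 1274 in shKDM3B+ATRA. RPS27 was at 455 and 449, 473 and 518, 430 and 431, and 289 and 322 CPM in the same order. The response of RPL4 to ATRA was small in both, with log2 fold changes of 0.16 and -0.07. Both shKDM3B+ATRA libraries, but only replicate 2 of shNC+ATRA, had a high portion of reads outside genes, and its part in these values was not tested.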

How the results depend on the processing

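Counts are of 76 genes unless stated. Between the treated groups, 26 lower genes became 44 without the fold criterion and 0 at an adjusted p under 0.05, and left-out libraries gave 0 to 33 lower, 0 to 1 higher and medians from -0.57 to -0.46. The median was -0.58 over the genes with no opposite-strand overlap. Without ATRA, 1 gene was higher with no low-count filter, and 0 to 1 with libraries left out. For ATRA in control cells, 0 genes were higher with DESeq2 size factors, library size alone, upper-quartile scaling, TMM without the members, no low-count filter, DESeq2, all 8 libraries in 1 fit, an adjusted p or no opposite-strand overlap. The lower count there was 4 with library size alone, 3 with upper-quartile scaling, no filter, all 8 libraries or no fold criterion, and 0 with an adjusted p or a mean of at least 100 CPM. Left-out libraries gave 0 to 4 higher and 0 to 6 lower. For ATRA in shKDM3B cells, the higher count was 0 with library size alone, upper-quartile scaling, all 8 libraries, an adjusted p, no opposite-strand overlap or at least 100 CPM, 2 without the fold criterion and 0 to 1 with left-out libraries. The lower count was 49 without the fold criterion and 44 at an adjusted p. The interaction gave 10 lower genes with library size alone, 33 without the fold criterion, 0 at an adjusted p and 3 to 24 with left-out libraries. The share of counts in shNC+ATRA was 6.28% over names common to all libraries. The alternatives on overlap, CPM and common names were chosen after seeing the data. The cause of these changes was not tested.

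With the replicate number as a block, 17 genes were lower between the treated groups, 1 was higher without ATRA, 0 were higher for ATRA in control cells, and the interaction gave 20 lower. The labels do not say what a number shares. Deviations of same-numbered libraries correlated at 0.39 without ATRA, 0.03 between the treated groups, -0.08 for ATRA in control cells and 0.18 in shKDM3B cells over all genes, and at 0.71, 0.13, -0.31 and 0.00017 over the 76 genes.

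Some small log2 fold changes changed sign. Without ATRA, RPS28 was -0.00223 with DESeq2 size factors, -0.00221 with DESeq2, -0.0200 with library size alone, -0.048 with upper-quartile scaling, -0.000965 with the block and -0.000165 with common names. For ATRA in control cells, RPL11 was -0.00800 with DESeq2 size factors, -0.00795 with DESeq2, -0.093 with library size alone, -0.065 with upper-quartile scaling, -0.021 with TMM without the members, -0.047 with no filter, -0.032 with all 8 libraries and -0.00094 with the block. RPL23 was -0.0084 with library size alone, and RPLP2 -0.064 there, -0.029 with upper-quartile scaling, -0.018 with no filter and -0.0043 with all 8 libraries. For ATRA in shKDM3B cells, RPL15 was -0.00023 with upper-quartile scaling, and RPLP0 -0.00466 with DESeq2 size factors, -0.00465 with DESeq2, -0.041 with library size alone, -0.061 with upper-quartile scaling, -0.014 with TMM without the members, -0.026 with no filter and -0.046 with all 8 libraries. The interaction of RPS3A was 0.011 with DESeq2 size factors and with DESeq2, 0.060 with library size alone, 0.021 with upper-quartile scaling and 0.018 with TMM without the members.

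With libraries left out, values without ATRA ran from -0.11 to 0.32 for RPL17, -0.088 to 0.25 for RPL23, -0.15 to 0.024 for RPL5, -0.060 to 0.023 for RPLP0, -0.45 to 0.16 for RPS10, -0.10 to 0.090 for RPS28 and -0.17 to 0.089 for RPS7. Between the treated groups they ran from -0.26 to 0.23 for RPL14, -0.31 to 0.089 for RPL15, -0.12 to 0.33 for RPL36A, -0.37 to 0.24 for RPS3A and -0.63 to 0.78 for RPS9. For ATRA in control cells they ran from -0.13 to 0.093 for RPL11, -0.087 to 0.24 for RPL23, -0.38 to 0.85 for RPL34, -0.24 to 0.52 for RPLP1 and -0.26 to 0.25 for RPLP2. In shKDM3B cells they ran from -0.0037 to 0.092 for RPL15, -0.035 to 0.012 for RPLP0 and -0.0091 to 0.30 for RPS3A. Interactions ran from -0.60 to 0.11 for RPLP1, -0.33 to 0.27 for RPS10, -0.15 to 0.24 for RPS26, -0.28 to 0.32 for RPS3A and -0.62 to 0.82 for RPS9.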
